A study of Mus musculus with 4 samples.

Results

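In RNA-seq libraries of mouse hair follicle stem cells, 10 genes of cytokine signalling were followed: the receptor chains of the interleukin-20 (IL-20) and interleukin-12 (IL-12) cytokine families, Il20ra, Il20rb, Il22ra1, Il10rb, Il12rb1 and Il12rb2, the kinases Jak1 and Tyk2, the transcription factor Stat3 and the feedback inhibitor Socs3. They are 10 of the 55401 genes in the deposited table, found by their gene symbols. The set was selected on earlier results of the same diet comparison, in which Il20ra and Il12rb2 were among the largest rises, so the values of its members are given as a description and carry no test. The samples were hair follicle stem cells taken in anagen, when the hair grows, from C57BL/6 mice. The mice were on a normal diet or had been on a high-fat diet for 4 months, and 2 libraries were made for each. No genetic change is named for either group, and the labels give no age for the animals and no duration for the normal diet. Neither the way the cells were isolated nor the origin of the libraries in separate or pooled mice is stated, so the spread between libraries may be technical. Values of a diet are listed with its first library before its second, normal diet before high-fat diet, and a log2 fold change is high-fat over normal diet ± its standard error.

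Cytokines of the IL-20 family signal through pairs of receptor chains on epithelial cells. IL-19, IL-20 and IL-24 bind a pair made of the products of Il20ra and Il20rb. IL-20 and IL-24 also bind the pair of Il22ra1 and Il20rb, and IL-22 binds Il22ra1 together with Il10rb. IL-12 binds Il12rb1 with Il12rb2, a pair best known from T and NK cells. The chains have no enzyme activity of their own: kinases of the JAK family bind to their intracellular parts, Jak1 and Tyk2 for IL-22 and Jak2 and Tyk2 for IL-12. The kinases phosphorylate mainly STAT3 in the IL-20 family and mainly STAT4 for IL-12. Socs3 is induced by STAT3 and inhibits JAK kinases. In epidermal keratinocytes IL-20 and IL-22 are known for driving proliferation and restraining terminal differentiation.

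Sequences upstream of the start sites are shown for the 3 members called higher with the high-fat diet and for Socs3, the textbook STAT3 target. They were taken from RefSeq on GRCm38.p6, cover up to 250 bases before the RefSeq start, end before the first base of an annotated exon, and run 5′ to 3′ on the gene's own strand. Capitals mark the STAT-type motif TTCNNNGAA or the AP-1 motif TGANTCA, both searched on both strands. The Il20ra sequence is chr10:19712337-19712569 on the plus strand, that of Il12rb2 chr6:67376189-67376438 on the minus strand, that of Stat3 chr11:100939541-100939790 on the minus strand, and that of Socs3 chr11:117969452-117969616 on the minus strand, inside the gene's span.
Il20ra: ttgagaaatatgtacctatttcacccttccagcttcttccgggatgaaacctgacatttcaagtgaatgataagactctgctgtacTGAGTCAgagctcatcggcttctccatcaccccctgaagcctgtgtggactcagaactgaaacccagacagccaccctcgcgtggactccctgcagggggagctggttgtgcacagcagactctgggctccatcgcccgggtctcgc
Il12rb2: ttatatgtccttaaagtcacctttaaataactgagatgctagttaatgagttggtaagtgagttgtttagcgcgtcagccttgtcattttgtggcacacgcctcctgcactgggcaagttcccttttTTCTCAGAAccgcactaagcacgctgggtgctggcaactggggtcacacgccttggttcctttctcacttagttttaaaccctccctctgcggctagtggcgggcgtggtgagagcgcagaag
Stat3: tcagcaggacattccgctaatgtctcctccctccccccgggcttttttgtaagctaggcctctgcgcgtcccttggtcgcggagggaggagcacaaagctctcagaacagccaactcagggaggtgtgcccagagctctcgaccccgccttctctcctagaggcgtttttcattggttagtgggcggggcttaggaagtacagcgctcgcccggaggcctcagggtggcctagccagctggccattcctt
Socs3: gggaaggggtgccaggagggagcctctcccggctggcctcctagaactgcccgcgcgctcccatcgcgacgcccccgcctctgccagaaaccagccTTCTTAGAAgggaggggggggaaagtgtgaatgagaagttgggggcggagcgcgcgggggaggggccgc

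RefSeq windows were found for 8 of the 10 members, and Il10rb and Il12rb1 were not matched. The STAT-type motif was present in 2 of the 8, Il12rb2 as TTCTCAGAA, first base 123 bases before the start, and Socs3 as TTCTTAGAA, 154 bases before it. The AP-1 motif was present in 2 others, Il20ra as TGAGTCA, 164 bases before the start, and Il22ra1 as TGAATCA, 222 bases before it. Of 32851 RefSeq windows of the same length, 7.02% held the STAT-type motif and 6.75% the AP-1 motif. The Stat3 window held neither. Il20ra and Il12rb2, the members with the largest differences between the diets, shared no motif of the 2 searched. A match describes letters in these windows and is not a measured binding site.

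Total counts were between 8590570 and 9940848 per library, so that 3 counts corresponded to between 0.291 and 0.358 CPM, which are scaled to the library size after TMM adjustment. Of 10 listed bulge stem cell markers, 9 had enough counts to be tested. Among them Krt15 lay between 1170 and 1641 FPKM (counts scaled by exonic length and library total), Sox9 between 170 and 212, Postn between 140 and 231, Lhx2 between 72.9 and 117 and Lgr5 between 19.9 and 24.3. The levels of the other listed markers are not given here. Of the 14479 genes tested with edgeR, 195 (1.35%) were called at a Benjamini-Hochberg adjusted p under 0.05, 162 (1.12%) higher and 33 lower with the high-fat diet. With libraries scaled to equal sums of TPM these were 88 and 3. The calls over all genes fell to 0 without the first normal-diet library, with 1488 genes at an unadjusted p under 0.05, and to 3 without the second. They were 83 and 58 without high-fat-diet library 1 or 2.

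With the high-fat diet, 3 of the 10 members were called higher in the fit across all genes, Il20ra, Il12rb2 and Stat3, and 0 were called lower by edgeR or DESeq2 (0 lower at an unadjusted p under 0.05). The share of all genes tested that was called higher is 1.12%, and because this contrast chose the members nothing is read from the difference. Il20rb, Il22ra1, Il10rb, Jak1, Tyk2 and Socs3 were tested and not called, and Il12rb1 was too low to test. In CPM, both high-fat-diet libraries lay above both normal-diet libraries for 5 members, where 22.7% of all genes tested do, and below them for 0, where 21.9% do. The diets overlapped for the other 5 if Il12rb1 is counted. The median of all 14479 log2 fold changes was 0.00.

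**Figure D1:**
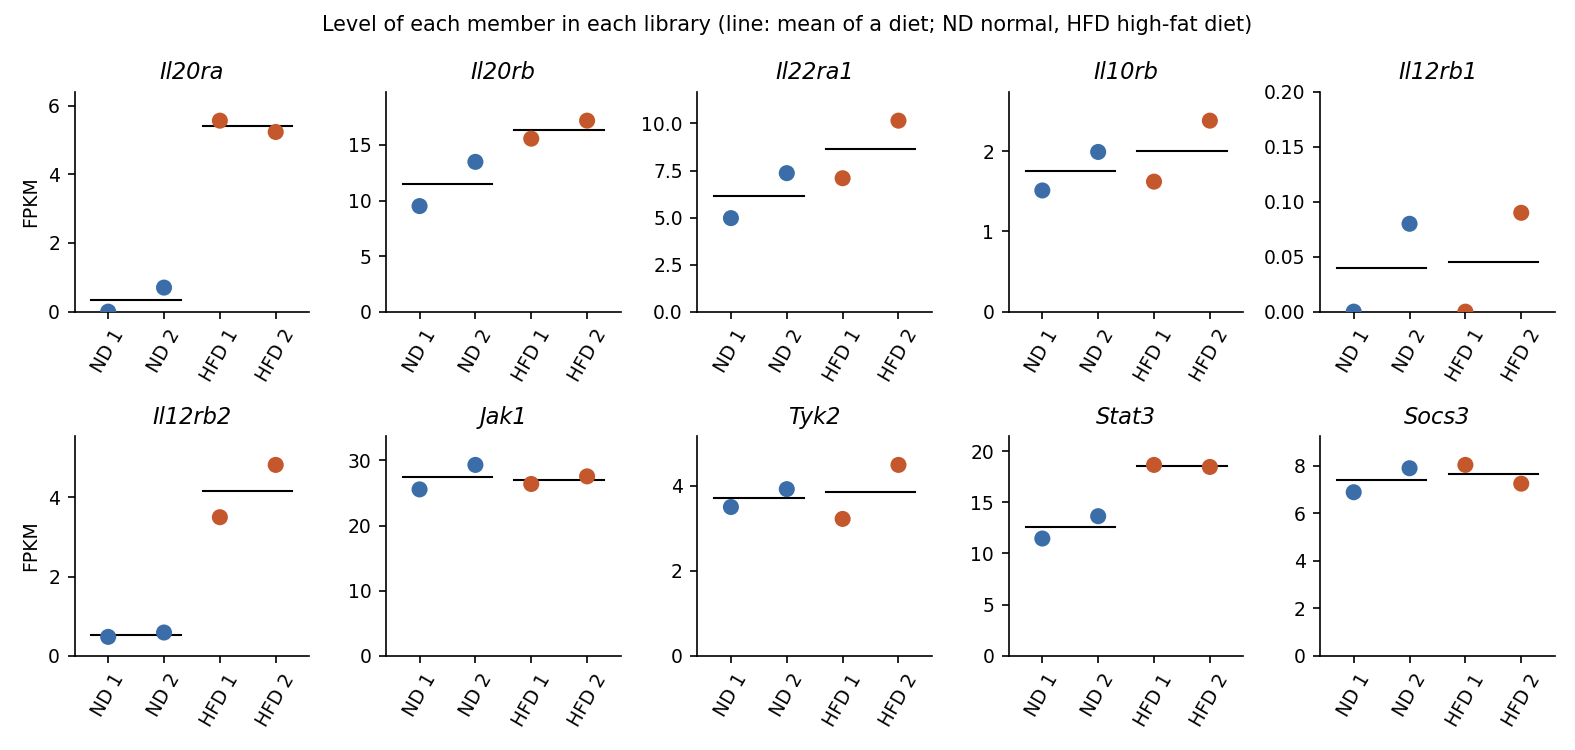
Level of each of the 10 genes in FPKM in each library, 1 panel per gene with its own axis from 0, normal diet (ND) in blue and high-fat diet (HFD) in orange, lines at the mean of a diet (n = 2). Il20ra rises from 0 and 0.70 to 5.56 and 5.23 and Il12rb2 from 0.48 and 0.59 to 3.50 and 4.82, whereas the points of Jak1, Tyk2, Socs3 and Il10rb overlap between the diets.

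Il20ra, the chain that sets the first type of IL-20 receptor apart from the second, changed from almost no reads to a clear signal (ENSMUSG00000020007, GRCm38, chr10:19712570-19760053, plus strand). Normal-diet counts were 0 and 16, and high-fat-diet counts 118 and 109. In FPKM these were 0 and 0.70 against 5.56 and 5.23. Both high-fat-diet libraries were high and close to each other, whereas the normal-diet libraries differed: the first had no read, which allows up to 3 counts, and the exact 95% Poisson interval of the second, which covers counting error only, ran from 9.15 to 26.0 counts. Mean CPM was 0.835 ± 1.18 (SD, n = 2) with the normal diet and 13.5 ± 0.709 (SD, n = 2) with the high-fat diet. The log2 fold change was 4.03 ± 0.80, a 16.3-fold difference.

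The size of that difference rested on the normal-diet libraries. Against the second of them alone it was 8.08-fold, and the log2 fold change without the first was 3.01. Against the first alone, which had no read of Il20ra, the high-fat-diet level was at least 46.5-fold higher, taking a floor of 3 counts in that library. Its call was lost when any 1 of the 4 libraries was left out, with DESeq2, whose standard error was 2.30, and with limma.

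Il20rb, the chain that both types of IL-20 receptor share, was present with either diet. Its normal-diet levels were 9.50 and 13.48 FPKM, and its high-fat-diet levels 15.57 and 17.19, from 397 to 621 counts. All high-fat-diet values were above the normal-diet values, but the gap between the diets was smaller than the distance between the normal-diet libraries. The log2 fold change was 0.60 ± 0.19, and the gene was not called. It lies at chr9:100457719-100486788 on the minus strand.

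Il22ra1, the chain that the second type of IL-20 receptor and the IL-22 receptor have in common, was at 4.97 and 7.36 FPKM in normal-diet libraries, against 7.09 and 10.15. In FPKM the lower high-fat-diet library fell below the higher normal-diet library. In CPM the order was reversed by a small margin, with 12.3 and 18.5 against 18.9 and 26.7, so whether the diets overlap depended on the scaling. Its log2 fold change was 0.57 ± 0.29 and it was not called. Without 1 library at a time the log2 fold change ranged from 0.29 to 0.89.

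Il10rb, the accessory chain shared by the IL-10, IL-22 and lambda interferon receptors, was low and overlapped between the diets. It was at 1.51 and 1.99 FPKM against 1.62 and 2.38, from 54 to 78 counts. The log2 fold change was 0.28 ± 0.41, and was -0.01 without the second high-fat-diet library.

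Set side by side per length, the chains of each receptor were unequal. Il20ra was the lower chain of the first IL-20 receptor in all 4 libraries: Il20rb exceeded it 19.3-fold in the second normal-diet library and 2.80-fold and 3.29-fold in the high-fat-diet libraries, while Il20ra had no read in the first normal-diet library. For the second IL-20 receptor the ratio of Il20rb to Il22ra1 stayed between 1.69 and 2.20 in the 4 libraries, 1.91 and 1.83 for normal-diet libraries and 2.20 and 1.69 for high-fat-diet libraries. Il10rb was the lower chain of the IL-22 receptor, at between 0.228 and 0.304 of the level of Il22ra1. Of these pairs, then, only the first IL-20 receptor had a lower chain whose diets were separated in FPKM. In CPM the diets were also separated for Il22ra1, the lower chain of the second. By that measure 22.7% of all genes tested were higher in both high-fat-diet libraries. Transcript levels say nothing of the receptors at the cell surface.

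**Figure D2:**
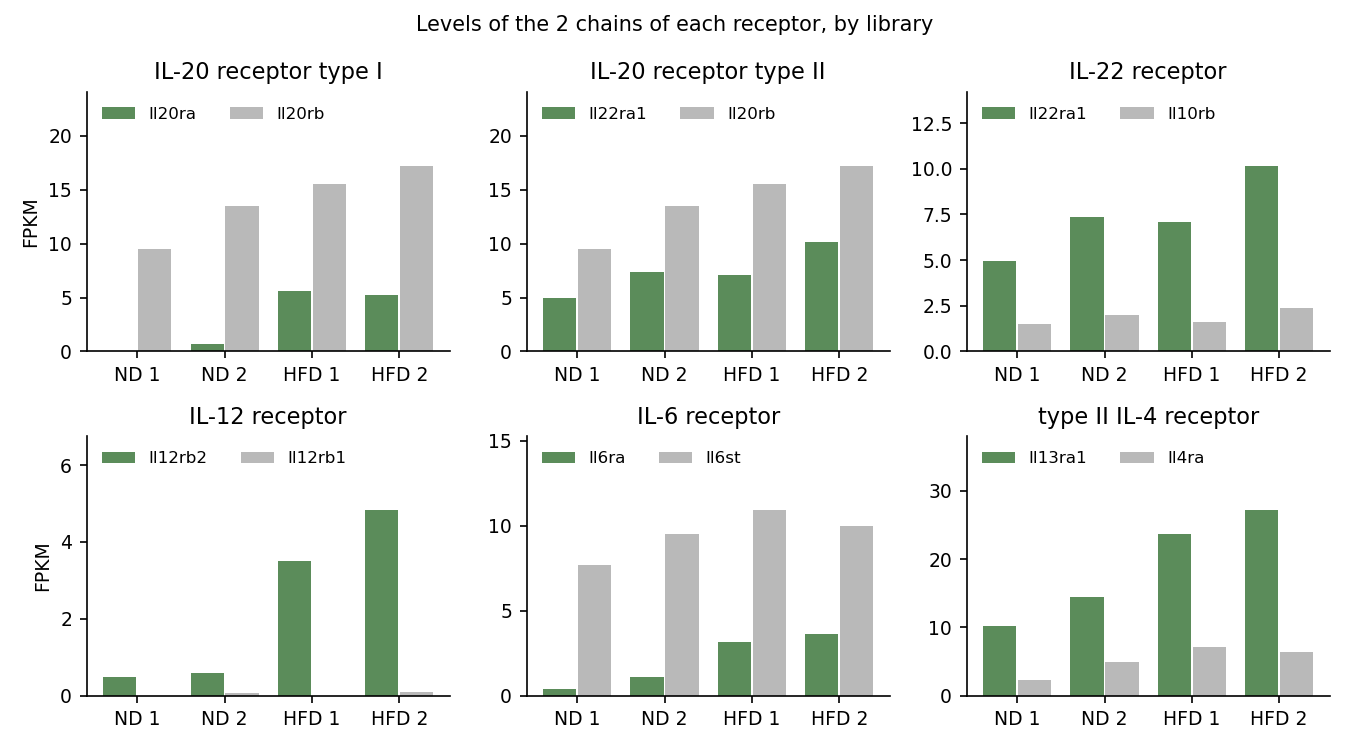
FPKM of the chains of 6 cytokine receptors in each library (ND normal diet, HFD high-fat diet), axes from 0. The first chain in each panel's legend is in green and the second in grey, 1 bar per chain and library. The ratio of Il20rb to Il20ra is 19.3 in ND 2 and 2.80 and 3.29 in HFD 1 and 2, the grey bars of Il12rb1 are at most 0.09, and Il6ra has 0.40 and 1.11 against 3.14 and 3.62.

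Il12rb2, the signalling chain of the IL-12 receptor, had normal-diet libraries that were closer to each other than those of Il20ra (ENSMUSG00000018341, chr6:67291318-67376188, minus strand). Counts were 18 and 21 against 116 and 157. The normal-diet libraries agreed within counting error, with exact 95% Poisson intervals of 10.7 to 28.4 and 13.0 to 32.1 counts, and both high-fat-diet libraries were well above them. Mean CPM was 1.97 ± 0.317 (SD, n = 2) and 16.2 ± 3.51 (SD, n = 2). The log2 fold change was 3.04 ± 0.40, an 8.22-fold difference, and ranged from 2.80 to 3.24 when 1 library was left out. Il12rb2 was called with each high-fat-diet library left out in turn, and not with either normal-diet library left out. DESeq2 called it and limma did not.

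The partner chain Il12rb1 was at the detection limit, with 0 and 3 counts on either diet, at most 0.09 FPKM. It did not pass the count filter and has no fold change. No library therefore held both chains of the IL-12 receptor above 3 counts. The IL-23 receptor chain Il23r, which also pairs with Il12rb1, had 2 counts in 1 high-fat-diet library and 0 in the other 3 libraries. Stat4, the STAT most closely tied to IL-12, had 0 and 1 counts against 1 and 5. Il12rb1 lies at chr8:70808449-70821424 on the plus strand.

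Jak1, the kinase that binds the IL-20 and IL-22 receptor chains, was the most abundant member and overlapped between the diets. Its levels were 25.56 and 29.32 FPKM against 26.39 and 27.56, from 1666 to 1985 counts. The log2 fold change was 0.06 ± 0.13, and its sign turned with equal sums of TPM, in both limma fits and without the first normal-diet library. Tyk2, the kinase bound by Il10rb and Il12rb1, was at 3.50 and 3.92 FPKM and at 3.22 and 4.49. The high-fat-diet libraries enclosed the normal-diet libraries, and the log2 fold change was 0.14 ± 0.23. The kinases lie at chr4:101152367-101265282 and chr9:21104068-21131243, both on the minus strand.

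Stat3 was called higher with a small difference between close replicates (ENSMUSG00000004040, chr11:100885098-100939540, minus strand). It had 1085 and 1217 counts against 1552 and 1510, or 11.46 and 13.64 against 18.65 and 18.45 FPKM. The gap between the diets was wider than the distance between the libraries of either diet. Mean CPM was 116 ± 15.5 (SD, n = 2) and 182 ± 2.88 (SD, n = 2), and the log2 fold change was 0.65 ± 0.14, a 1.57-fold difference. Its range without 1 library at a time was 0.52 to 0.79. The call was lost in each of these 4 fits, with equal sums of TPM and in both limma fits, and held with DESeq2.

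Socs3, the feedback inhibitor, was at 6.89 and 7.90 FPKM against 8.04 and 7.25, from 180 to 214 counts. The diets overlapped. The log2 fold change was 0.13 ± 0.23, between 0.03 and 0.25 when 1 library was left out. The Socs3 locus is chr11:117966079-117970047 on the minus strand. The difference between the fold changes of Stat3 and Socs3 was not tested.

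**Figure D3:**
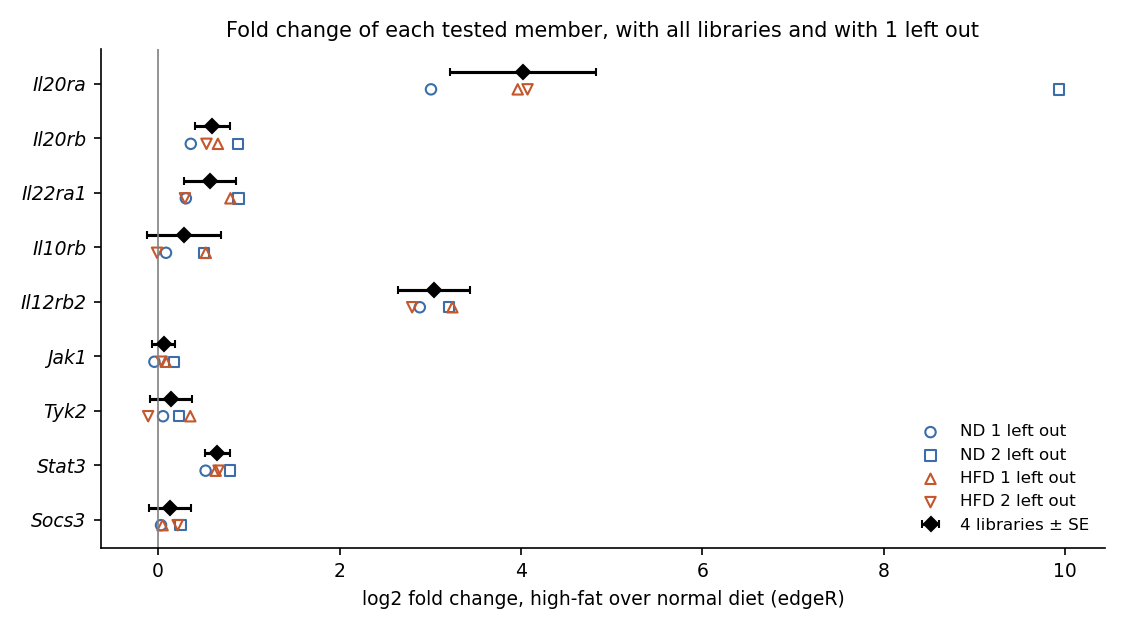
Log2 fold change (high-fat over normal diet, edgeR) of the 9 tested members with all 4 libraries (black diamonds, bars of 1 standard error) and with each library left out (open symbols). Il20ra runs from 3.01 to a fitted value past 9 when its only normal-diet library has no read, Il12rb2 from 2.80 to 3.24 and Stat3 from 0.52 to 0.79, and the symbols of Il10rb, Jak1 and Tyk2 lie on both sides of 0.

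Ordered by mean FPKM over the 4 libraries, the members ran from Jak1 at 27.2 through Stat3 at 15.6, Il20rb at 13.9, Socs3 at 7.52, Il22ra1 at 7.39, Tyk2 at 3.78, Il20ra at 2.87, Il12rb2 at 2.35 and Il10rb at 1.88 to Il12rb1 at 0.0425. The ranges of Stat3 and Il20rb overlapped, as did those of Socs3 and Il22ra1 and each step from Tyk2 to Il10rb. Jak1 was separated from Stat3, Il20rb from Socs3, Il22ra1 from Tyk2 and Il10rb from Il12rb1. By mean FPKM within a diet, Il20ra had rank 9 of the 10 with the normal diet and rank 6 with the high-fat diet. Il12rb2 went from rank 8 to 7, Il10rb from 7 to 9 and Tyk2 from 6 to 8. In the normal-diet libraries the ranges of Il20ra and Il12rb2 overlapped, so their order there was not separated.

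Transcripts of the ligands were scarce in these libraries. Of 24 ligands listed for these and related receptors, 11 had no read in any library, among them Il22, Il12a, Il12b, Il23a and Ifng, and 8 more had at most 3 counts in every library. Il24 had 0 and 5 counts against 0 and 3, Il20 had 2 counts in 1 high-fat-diet library and Il19 had 1 count in the other. Of the gp130 family 3 ligands passed the filter, of which edgeR and DESeq2 called 0 (0 at an unadjusted p under 0.05): Ctf1 had counts between 23 and 61, Clcf1 between 5 and 22 and Lif between 1 and 17. A library with no read of a gene allows up to 3 counts at this depth, so absence from these cells was not shown, and other cells of the skin were not measured.

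Among the listed receptor chains, Il6ra and Il13ra1 were the other ones called. The lists do not hold every cytokine receptor. Of 31 listed chains that are no members, 22 were tested, and 2 were called higher and 0 lower (9.09% called, against 1.35% of all genes tested), with a median log2 fold change of 0.31. The lists were written with earlier results of these data known. Il6ra, the IL-6 binding chain that signals through gp130 to STAT3, had 34 and 90 counts against 237 and 269. It rose 4.76-fold, a log2 fold change of 2.25 ± 0.39 (edgeR, Benjamini-Hochberg adjusted p = 0.022). The libraries of the normal diet lay apart, at 3.29 and 9.40 CPM, and both lay below the 28.1 and 32.1 CPM of the high-fat-diet libraries. The Il6ra call was lost without either normal-diet library, with log2 fold changes of 1.68 and 3.18, and with limma. Its partner Il6st, which encodes gp130, was at 7.69 and 9.52 FPKM against 10.9 and 9.97, not called (edgeR adjusted p = 0.325).

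Il13ra1, which binds IL-13 and pairs with Il4ra in the second type of IL-4 receptor, rose 2.19-fold, from 376 and 502 counts to 766 and 866 (log2 fold change 1.13 ± 0.19, edgeR adjusted p = 0.017). Its FPKM values were 10.19 and 14.44 against 23.63 and 27.16, with no overlap. The call was lost without the first or second normal-diet library, without high-fat-diet library 2 and with limma (log2 fold changes between 0.89 and 1.41 when 1 library was left out). Il4ra was at 2.25 and 4.87 FPKM against 7.15 and 6.34, a log2 fold change of 1.01 ± 0.31 (edgeR adjusted p = 0.170). It was the lower chain of the pair in every library.

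In the list of other class II receptor chains, the structural family of the IL-20 and interferon receptors, 7 of 8 were tested, and edgeR called 0, with 1 at an unadjusted p under 0.05. DESeq2 called 1, Ifngr1, in the same direction. Ifngr1, a chain of the interferon-gamma receptor, had 123 and 119 counts against 211 and 221, a log2 fold change of 1.08 ± 0.24 (edgeR adjusted p = 0.056). Ifnar1 was at 9.37 and 10.06 FPKM against 9.31 and 7.49 (edgeR adjusted p = 0.831), and Ifngr2 at 7.72 and 9.58 against 6.93 and 8.41 (edgeR adjusted p = 0.918), and both overlapped between the diets in CPM. In FPKM both high-fat-diet libraries of Ifnar1 were below the normal-diet libraries. Of 12 gp130 and IL-12 type chains 9 were tested and Il6ra was the 1 called, also by DESeq2. At an unadjusted p under 0.05, edgeR had 3 of them higher and 2 lower, against 1922 of all 14479 genes in either direction. Cntfr, the ciliary neurotrophic factor receptor and the most abundant of them, was at 45.38 and 33.54 FPKM against 28.52 and 22.39 (log2 fold change -0.54, edgeR adjusted p = 0.208). Lifr overlapped between the diets, at 11.48 and 13.74 against 12.13 and 11.92 FPKM. Il11ra1 was lower in FPKM, at 17.01 and 20.99 against 15.8 and 16.01, but overlapped in CPM (log2 fold change -0.17, edgeR adjusted p = 0.708). Of 11 common gamma and IL-4/IL-13 type chains 6 were tested and Il13ra1 was the 1 called, also by DESeq2. At an unadjusted p under 0.05, edgeR had 2 of them higher and 0 lower. Crlf2 was at 3.57 FPKM in both normal-diet libraries and at 2.53 and 1.09 in the high-fat-diet libraries (edgeR adjusted p = 0.569).

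**Figure D4:**
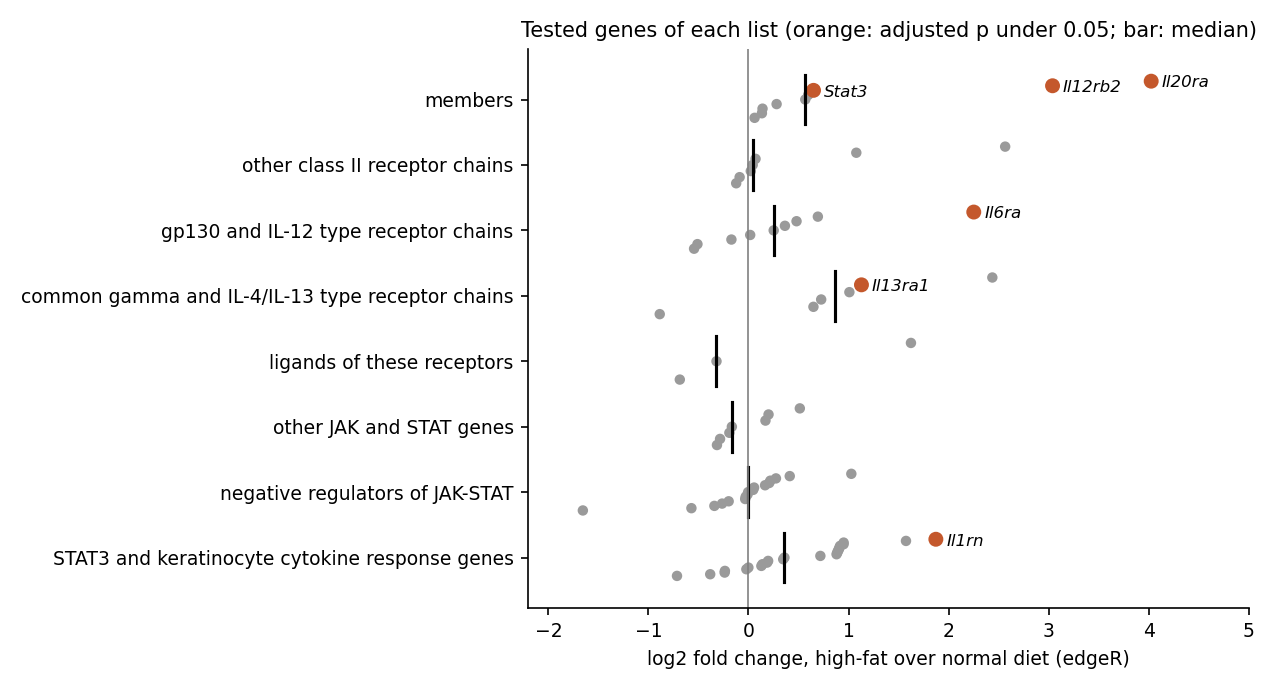
Log2 fold change (high-fat over normal diet, edgeR) of each tested gene of the members and 7 related lists, with a black bar at the list's median and genes of adjusted p under 0.05 in orange with their names. The called non-members are Il6ra at 2.25, Il13ra1 at 1.13 and Il1rn at 1.87, and the medians run from -0.32 for the ligands to 0.87 for the common gamma and IL-4/IL-13 type chains.

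Downstream of the receptors, edgeR called 0 of 7 tested other JAK and STAT genes and 0 of 17 negative regulators, with medians of -0.17 and 0.00. At an unadjusted p under 0.05 these were 1 and 0, and DESeq2 called 0 in both lists. Jak2 was at 13.0 and 12.29 FPKM against 12.7 and 14.09, Stat6 at 11.54 and 13.14 against 14.02 and 12.69 and Stat5b at 7.36 and 9.02 against 6.84 and 5.82. The phosphatases Ptpn11 (20.44 and 16.97 against 15.25 and 15.44 FPKM), Ptpn1 (13.82 and 15.69 against 13.7 and 14.03) and Ptpn6 (12.31 and 12.69 against 11.03 and 13.46) were the most abundant regulators. Of the listed JAK and STAT genes tested, members included, Stat3 was the 1 called by edgeR.

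Of 32 listed response genes of STAT3 and of cytokine-treated keratinocytes, 23 were tested, 1 was called higher and 0 lower, with a median of 0.36. Over all genes tested 1.12% were called higher. At an unadjusted p under 0.05, edgeR had 6 of the 23 higher and 1 lower, against 1922 of all 14479 genes in either direction. DESeq2 called 4 higher and 1 lower. In CPM, 10 were higher in both high-fat-diet libraries and 1 lower in both, where 22.7% and 21.9% of all genes tested are. Il1rn, the interleukin-1 receptor antagonist, had 68 and 36 counts against 155 and 165 (log2 fold change 1.87 ± 0.35, edgeR adjusted p = 0.027). The Il1rn call was lost when any 1 library was left out, with equal sums of TPM and with limma, and held with DESeq2. Krt6a, a keratin of activated keratinocytes, was at 54.46 and 72.41 FPKM against 132.2 and 89.78 (log2 fold change 0.89, edgeR adjusted p = 0.050, just outside the threshold). Krt17 and Cebpb, the most abundant of the list, had log2 fold changes of -0.24 each with overlapping diets. The antimicrobial genes S100a7a and Defb4 had no read, and S100a8 and S100a9 at most 3 counts. Over the pathway lists without members DESeq2 called 8 genes where edgeR called 3 of the 72 tested, the added ones being Ccnd1 (lower), Ifngr1, Junb, Krt6a and Myc.

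Il20ra lies at the end of a cluster of class II receptor genes on chromosome 10. This neighbourhood was examined after its values were seen. In order along the plus strand come Ifngr1 (chr10:19591949-19610229), Il22ra2 (chr10:19621998-19634681) and Il20ra, with 77889 bases between the last pair. Il22ra2 encodes a soluble receptor that binds IL-22, and had 0 and 8 counts against 24 and 18 (log2 fold change 2.57 ± 1.17, edgeR adjusted p = 0.379). Leaving out the first normal-diet library, which had no read of Il22ra2, gave 1.57. Leaving out the second gave a fitted 7.51, which is no bound, since the normal diet then had 0 counts. All 3 genes of the cluster were higher in both high-fat-diet libraries than in both normal-diet libraries, as were 22.7% of all genes tested in CPM. Il20ra was chosen on this same contrast, so nothing about the region is read from these values. Pex7, the next tested gene at higher coordinates, had a log2 fold change of -0.23 ± 0.24. In the cluster on chromosome 16 that holds Il10rb (chr16:91406164-91425834), Ifnar2, Ifnar1 and Ifngr2 had log2 fold changes of 0.07, -0.12 and -0.09 and overlapped between the diets in CPM. Ifnlr1, next to Il22ra1 (chr4:135728172-135752140) on chromosome 4, was at 0.04 ± 0.38.

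At one end Il12rb2 overlaps the strongly expressed Serbp1 on the opposite strand over 6419 bases. Serbp1 had 7815 and 7563 counts against 6604 and 6419 (log2 fold change 0.00), and as the strand setting of the counting is not given in the sources used here, reads of the shared stretch cannot be assigned. The antisense gene Gm33332 inside Il20ra had 9 counts in the second normal-diet library, where Il20ra had 16, and 0 in the others. On the high-fat diet Il20ra had 118 and 109 counts. Stat3 shares 72 bases with Stat5a on the opposite strand, which had between 135 and 266 counts.

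The genes whose level followed Il20ra most closely over the 4 libraries, by root mean square distance of log2(CPM + 0.5) after centring each gene, were Mmp28 at 0.042, Igfbp3 at 0.194 and Nat8l at 0.511. Mmp28, the matrix metalloproteinase epilysin, had 1 and 20 counts against 151 and 138. Closest to Il12rb2 were Adh6b at 0.102, Slc24a3 at 0.112 and Sema3d at 0.129. Slc24a3 had 15 and 18 counts against 118 and 162. With 4 libraries such likeness is a description of these samples.

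In bulk RNA, fewer cells of a type and less RNA per cell cannot be told apart, and markers of other cells were set beside the members. The summed level of the 12 suprabasal keratinocyte markers was 1926 and 3674 CPM against 4997 and 5861. Of the 12, 10 were higher in both high-fat-diet libraries and 1 lower in both, and edgeR called 3 higher and 1 lower. Their log2 fold changes ran from -2.27, that of the gene called lower, to 1.62. For this list and those that follow, the shares over all genes tested are 22.7% higher in both, 21.9% lower in both and 1.12% called higher. Lgals7 lay between 668 and 841 FPKM, and Krt10, the main keratin of that layer, rose 2.45-fold (edgeR adjusted p = 0.040, and 0.281 with DESeq2). The Krt10 call was also lost with limma and without the first or second normal-diet library or high-fat-diet library 2, and with 1 library left out its log2 fold change lay between 0.85 and 1.92. The basal markers, led by Krt5 and Krt14, summed to 13955 and 15842 CPM against 20644 and 19001. Of these 6 genes 5 were higher in both high-fat-diet libraries, edgeR called 1 higher, Krt14, and DESeq2 called 2 (Krt14 and Col17a1). The upper follicle and sebaceous markers, led by Krt17 and Krt79, summed to 5080 and 4213 CPM against 4677 and 4167, with 4 of 10 tested called higher. The part of these shifts in the values of Il20ra, Il12rb2 and Stat3 was not tested. Bulge markers summed to 5724 and 7149 CPM against 7233 and 6250, but 6 of the 9 tested were lower in both high-fat-diet libraries and 1, Krt15, was higher in both. By edgeR 0 of the 9 were called, with 1 higher and 3 lower at an unadjusted p under 0.05. DESeq2 called 1 of them, Lhx2, lower (edgeR adjusted p = 0.074).

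Because Il12rb2 is best known from T and NK cells, markers of these cells were also measured. Their summed level was 5.04 and 23.4 CPM against 27.6 and 24.9. The second normal-diet library was close to the high-fat-diet libraries in this sum, but not in every marker, as the counts below show. The part of these cells in the Il12rb2 values was not tested. Of 18 markers 7 passed the filter, and edgeR and DESeq2 called 0 (0 at an unadjusted p under 0.05). Of the 7, 3 were higher in both high-fat-diet libraries and 0 lower in both. Among the markers that failed the filter, Tbx21 and Ncr1 had no read, and Klrk1 had 0 and 0 counts against 10 and 7. Trac had 0 and 0 counts against 5 and 2, whereas Gzmb had 0 and 6 against 1 and 1. Cd3d had 1 and 0 counts against 8 and 11, and Trdc 0 and 16 against 24 and 47. Cd3g had 2 and 63 counts against 59 and 54, and Lck between 21 and 42. Myeloid and Langerhans cell markers, led by Epcam (which keratinocytes of the follicle also express) and Cd74, summed to 325 and 327 CPM against 351 and 343, with Itgam at 0 in all libraries. Without Epcam, a choice made after its values were seen, the other 15 summed to 33.5 and 68.0 CPM against 77.4 and 102. Of these 15, 6 were higher in both high-fat-diet libraries and 1 lower in both, genes that failed the count filter included. Of the 11 tested genes of the full list, 3 were higher in both and 0 lower in both. Over all genes tested these shares are 22.7% and 21.9%. Fibroblast markers, led by Col1a1 and Dcn, summed to 45.2 and 57.4 against 81.2 and 65.8 CPM, endothelial markers, led by Pecam1 and Cdh5, to 12.2 and 16.1 against 21.5 and 25.3, and melanocyte markers, led by Dct and Tyrp1, to 28.2 and 12.6 against 22.3 and 13.4. In these 4 lists edgeR and DESeq2 called 0 genes; at an unadjusted p under 0.05 there were 3 myeloid and 2 fibroblast genes and 0 endothelial and melanocyte genes. The part of the myeloid, fibroblast and endothelial shifts in the members' values was not tested.

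**Figure D5:**
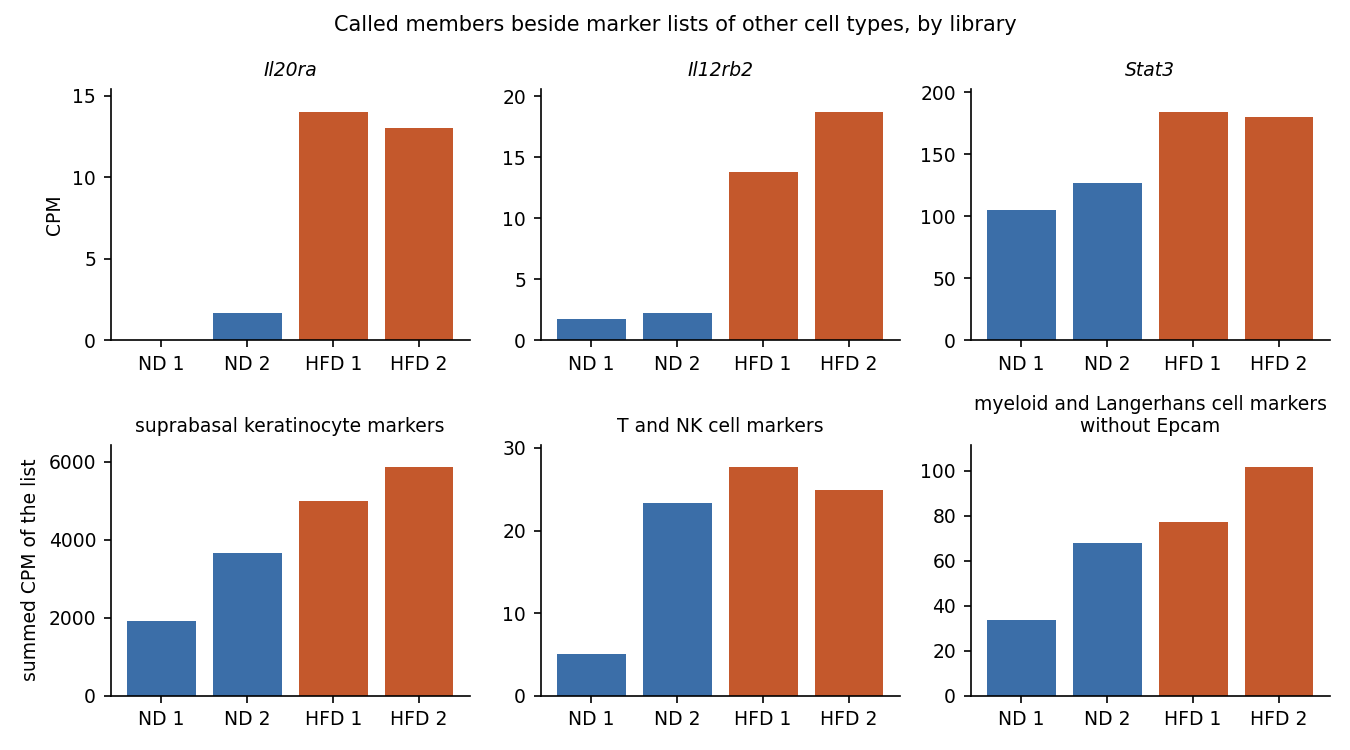
CPM of the 3 called members (upper row) and summed CPM of 3 marker lists of other cell types (lower row) in each library, normal diet (ND) in blue and high-fat diet (HFD) in orange, axes from 0. The suprabasal sum rises from 1926 and 3674 to 4997 and 5861, and the T and NK cell sum is 5.04 and 23.4 with the normal diet, then 27.6 and 24.9. The myeloid and Langerhans sum is drawn without Epcam and runs from 33.5 and 68.0 to 77.4 and 102.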

How the data were processed

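Total RNA of 4 libraries, 2 per diet as their labels give it, was purified and sequenced with standard Illumina protocols, per the labels' protocols. HISAT2 2.0.1, cutadapt 1.9.1 and bcl2fastq 2.17.1.14 are the tools in the submitters' processing notes. How reads were counted, with which strand setting and annotation, was not given in the sources used here. For every gene and library the authors deposited a whole-number count and an FPKM value, with exonic lengths. All 221604 deposited FPKM values equalled the count over exonic length and library total, within 0.01. Of its gene identifiers 55141 occur in GENCODE M21, 99.4% of them at the same position, so positions are on GRCm38.

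Counts were tested in R 4.3.3 with the edgeR 4.0.16 quasi-likelihood test, TMM scaling and its default filter (about 10 counts, as CPM, in 2 libraries and 15 counts over all), which kept 14479 genes; a gene could pass through 1 diet alone. P-values were adjusted by Benjamini-Hochberg over these genes and called under 0.05. The fit had no replicate term. Total counts of 8590570 to 9940848 set the precision, and without molecular identifiers intervals and floors cover counting error only. Libraries of one diet were further apart than sampling noise (chi-square over its degrees of freedom 13.9 and 6.53). DESeq2 1.42.0, limma 3.58.1 on log2(FPKM + 1) and log2(FPKM + 0.1), other scalings, no filter, a replicate block and fits without 1 library were alternatives.

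The members and the gene lists were chosen with earlier results of these data known. Named genes are the members; of each pathway list, every called gene and the 3 of highest mean FPKM; of each marker list the 2 of highest mean FPKM; and for Il20ra and Il12rb2 the 3 genes of nearest profile with a mean CPM of at least 1. Other genes were named after their values were seen, to give partner chains, neighbours, ligands or the genes behind a count. One gene near a member is not reported here.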

Additional observations from a re-analysis of the deposited data

How the results depend on the processing

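Across all genes 195 were called, and 193 with DESeq2 size factors in edgeR. The count was 91 with equal sums of TPM, 633 without a filter on low counts, 389 with DESeq2, 2 with limma at either pseudocount and 419 with a replicate block. Leaving out 1 library gave 0 to 83. Of the members 3 were called, 0 with limma at either pseudocount, and 0 to 1 without 1 library, Il12rb2 being the 1. Equal sums of TPM left 2 (Stat3 lost) and DESeq2 left 2 (Il20ra lost). Of the other pathway genes 3 were called, 13 without a filter, 8 with DESeq2, 0 with limma at either pseudocount, 11 with the replicate block and 0 to 2 without 1 library. The cause of these shifts was not tested, beyond the smaller number of libraries in the last kind of fit, which take the spread of a diet left with 1 library from the other diet. The replicate block changed no call of a member. The labels do not say whether the shared replicate numbers pair the libraries. Over 14479 genes the differences between the first and second library of each diet correlated at -0.005. That value shows no shared direction, but it cannot settle how the libraries were prepared. No alternative moved the median of all genes by over 0.1 on the log2 scale. Log2 fold changes of Il20ra, Il20rb, Il22ra1, Il12rb2, Stat3 and Socs3 were positive under all 11 alternatives, that of Jak1 under 7, and those of Il10rb and Tyk2 under 10. With at most 5 counts in a library, Il12rb1, Il23r and Stat4 cannot be ordered at this depth.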
